A study of Mus musculus with 5 samples.

Results

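The transcripts of MHC class I antigen presentation were compared between mouse pancreatic cancer cells with high and low autophagic flux. The 10 genes described were chosen by symbol and encode the classical heavy chains (H2-K1, H2-D1), the light chain beta-2-microglobulin (B2m), the peptide transporter (Tap1, Tap2), tapasin (Tapbp), the trimming peptidase of the endoplasmic reticulum (Erap1), the transactivator Nlrc5 and the inducible proteasome subunits Psmb8 and Psmb9. All 10 had a row among the 52459 rows of the deposited table, and 9 of them were among the 11397 genes tested. The cells came from HY15549, a line on a C57BL/6 background, and every library carried the same GFP-LC3-RFP reporter, in which the ratio of green to red signal reads autophagic flux. Organoids of these cells, kept in Matrigel (a basement membrane gel) with 10% serum, were dissociated and sorted into autophagy-high cells (AThi, 2 libraries) and autophagy-low cells (ATlo, 3 libraries). The comparison asks how transcripts of one line differ with flux. Since 1 line was used, the libraries do not sample other tumours, and since the labels do not state that each grew as a culture of its own, p-values reflect library-to-library spread, which may be technical.

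Class I molecules present peptides of cytosolic and nuclear proteins to CD8+ T cells. Proteasomes cut the proteins, TAP carries the peptides into the endoplasmic reticulum, ERAP1 trims them, and tapasin with further chaperones loads them onto a heavy chain paired with beta-2-microglobulin. Interferons raise most of these genes together, through IRF factors and through NLRC5, which acts on a conserved promoter module with the RFX factors. In pancreatic cancer, class I molecules are known to be delivered to lysosomes by selective autophagy with the receptor NBR1, a step that acts on the protein and is not read by RNA.

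AThi cells had higher transcript levels of both transporter genes and of the inducible proteasome subunit gene Psmb8, at low absolute levels, while the heavy chain genes, which were abundant, differed little. Tap2 rose from 4.55 ± 0.08 FPKM in ATlo (SD, n = 3) to 8.66 ± 0.65 FPKM in AThi (SD, n = 2), and Psmb8 from 1.24 ± 0.25 to 2.65 ± 0.29 FPKM (same n). FPKM are fragment counts scaled to gene length and library size, so levels can be set side by side between genes. H2-K1 averaged 112 ± 3.74 FPKM over the AThi libraries (SD, n = 2) and 123 ± 0.98 FPKM over those of ATlo (SD, n = 3), a difference that did not pass the test. In bulk libraries such as these, a lower value from fewer cells of a type cannot be told apart from less RNA per cell. The test was limma on log2(FPKM + 0.5) over every gene whose mean reached 1 FPKM, and a gene was called at a Benjamini-Hochberg adjusted p under 0.05. Of the 9 members tested, 4 were called, all 4 higher in AThi, where 51.6% of all tested genes were called, 22.2% higher and 29.4% lower. The members' share is thus near the background, and the results are given gene by gene. Psmb9 had a mean under 1 FPKM in ATlo and entered the test through its AThi values, so its call is no independent support for that count. Nlrc5 stayed below the filter in every library.

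The libraries had implied depths of 27.6 M to 45.0 M reads, and Pearson's r across genes, which are not independent replicates, was 0.9896 to 0.992 within a group and 0.926 to 0.948 between groups. The 8 epithelial markers checked were all above the filter. Krt8, Krt18 and Krt19 were between 609 and 1842 FPKM, while Epcam, the lowest, was at 1.51 to 3.57 FPKM. Of these 8, Sox9 rose from 18.1 ± 2.37 FPKM in ATlo (SD, n = 3) to 36.9 ± 4.04 FPKM in AThi (SD, n = 2), Krt7 fell from 123 ± 9.16 to 77.3 ± 8.68 FPKM (SD, same n), and 6 were not called. Of 9 acinar and endocrine markers, 7 were listed at 0 in every library, Cela1 was at 10.2 to 12.9 FPKM, and Ctrb1 was at 0.62 and 0.58 FPKM in AThi and 0, 0 and 0.03 FPKM in ATlo. Of 13 leukocyte markers, 12 were under 0.1 FPKM in every library, among them Ptprc, which encodes CD45, and the class II genes H2-Aa, H2-Ab1 and H2-Eb1 reached at most 0.08 FPKM. The exception was Cd68, a lysosomal membrane protein gene, at 8.68 and 14.7 FPKM in AThi and 4.31 to 4.55 FPKM in ATlo. All 8 fibroblast markers summed to 0.11 to 0.17 FPKM and the 6 endothelial ones to 0.02 to 0.08 FPKM, with ranges that overlapped between groups. All 12 immediate-early genes, which respond to cell handling, were higher in AThi, with sums of 3960 and 6229 FPKM in AThi replicates 1 and 2 and 1330 to 2155 FPKM in ATlo. Mitochondrially encoded genes made up 10.0% and 7.51% of all FPKM in AThi and 5.53% to 5.98% in ATlo. These measures moved with the groups, and their part in the results on class I genes was not tested.

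The upstream sequences of the heavy chain, light chain and transporter genes are shown because class I genes are known to share promoter elements. Each stretch is given 5′ to 3′ from RefSeq on GRCm38.p6, up to the base before a RefSeq transcript start, and capitals mark motif matches found on either strand. H2-K1 is chr17:34000348-34000597 on the minus strand, H2-D1 chr17:35262844-35263093 on the plus strand and B2m chr2:122147437-122147686 on the plus strand. The RefSeq starts of Psmb9 and Tap1 lie back to back, and the stretch between them is chr17:34187331-34187555, 225 bases, written on the strand of Tap1.
H2-K1: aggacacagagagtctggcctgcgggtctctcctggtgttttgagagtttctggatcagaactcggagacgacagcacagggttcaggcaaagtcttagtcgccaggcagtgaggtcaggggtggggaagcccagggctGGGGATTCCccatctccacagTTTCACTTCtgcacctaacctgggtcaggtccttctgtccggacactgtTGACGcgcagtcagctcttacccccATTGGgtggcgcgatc
H2-D1: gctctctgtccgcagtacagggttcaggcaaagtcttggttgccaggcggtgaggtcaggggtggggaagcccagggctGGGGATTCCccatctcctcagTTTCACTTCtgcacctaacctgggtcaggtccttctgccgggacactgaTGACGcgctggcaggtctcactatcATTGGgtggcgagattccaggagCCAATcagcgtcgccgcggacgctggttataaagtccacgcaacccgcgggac
B2m: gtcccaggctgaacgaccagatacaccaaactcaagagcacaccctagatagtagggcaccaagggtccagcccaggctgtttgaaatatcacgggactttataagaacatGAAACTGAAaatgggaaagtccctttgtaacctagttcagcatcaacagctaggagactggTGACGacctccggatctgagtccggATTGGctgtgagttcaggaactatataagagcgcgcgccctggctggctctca
Psmb9-Tap1: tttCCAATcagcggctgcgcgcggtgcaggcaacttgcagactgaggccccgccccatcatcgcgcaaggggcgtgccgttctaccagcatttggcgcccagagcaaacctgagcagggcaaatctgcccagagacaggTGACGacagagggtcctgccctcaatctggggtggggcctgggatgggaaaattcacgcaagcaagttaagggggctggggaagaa
Both heavy chain stretches held, in the same order, a kB-type match (GGGNNTTCC, read as GGGGATTCC), the core of the interferon consensus sequence of class I genes (TTTCACTTC), the X2-box core (TGACG) and the Y-box core ATTGG, which is the CCAAT box on the opposite strand. Without gaps, at the shift with the most identical bases, they matched at 166 of 190 aligned bases, or 87.4%. For the window of a second H2-K1 start, given below, it was 169 of 204, or 82.8%. B2m held an interferon-stimulated response element (GAAANNGAA, read as GAAACTGAA) with TGACG and ATTGG behind it, and the Psmb9-Tap1 stretch held TGACG and the complement of ATTGG. The motifs overlapped in none of these stretches. GGGNNTTCC has a fixed length and cannot match longer kB-type sites, so a stretch without a match may still hold such a site. Behind GAAACTGAA the B2m stretch reads gggaaagtccc, which was not tested as a kB-type site.

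Sequence was available for 8 of the 10 members, all but Tap2 and Nlrc5. Of 32851 promoter windows of 250 bases in the RefSeq table, GGGNNTTCC was found in 4.98%, TTTCACTTC in 0.402% (132 windows), GAAANNGAA in 7.13%, TGACG in 17.8% and ATTGG in 33.9%, so the last pair are common by their letters alone. The TTTCACTTC match lay 90 to 82 bases before the start of H2-K1 and 150 to 142 bases before that of H2-D1. The Tapbp window held ATTGG at 2 places, that of Erap1 held the complement of GAAANNGAA at 9 to 1 bases before its start, and that of Psmb8 held none of the 5 motifs. These are letter matches in 1 window per start. H2-K1 has a second RefSeq start at 34000333, whose window holds the same kB-type, TTTCACTTC and TGACG matches, and the annotation used for coordinates places the first base of 7 of the 8 genes, all but H2-K1, further upstream, by a few bases in B2m and Tap1 and farthest in Tapbp (33915899 against a RefSeq start of 33919478). By that annotation Psmb9 and Tap1 overlap at their starts.

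**Figure D1:**
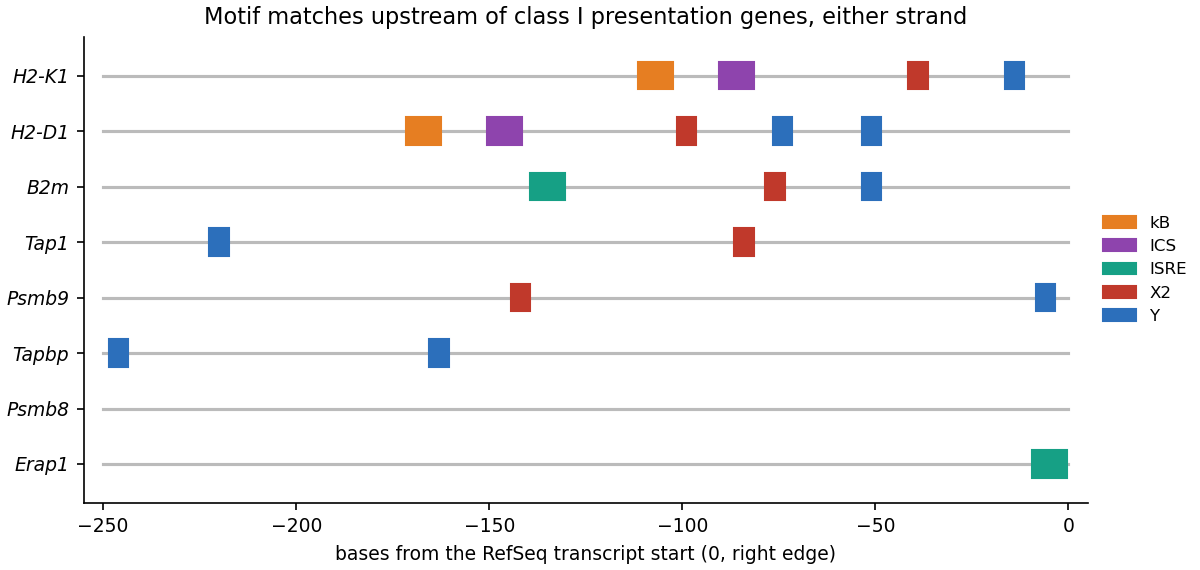
Positions of the 5 motifs in the 250 bases before the RefSeq start of 8 members (x axis, bases from the start, with the start at the right edge); coloured boxes are matches on either strand and grey lines the window. H2-K1 and H2-D1 show the same order of kB, ICS (TTTCACTTC), X2 and Y matches, and Psmb8 shows none.

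The levels of the members spanned 4 orders of magnitude and fell into tiers. B2m was the most abundant, at rank 175 of the 11397 tested genes, followed by H2-D1 and H2-K1 at ranks 297 and 300, whose values overlapped within each group. Tapbp was at rank 744. Tap2 (rank 6976) and Erap1 (rank 7961) were moderate, and their order rested on AThi, since in ATlo their ranges of 4.49 to 4.64 and 4.35 to 4.80 FPKM overlapped. Tap1, Psmb8 and Psmb9 were among the lowest tested genes, with ranks from 10331 to 11047, and Nlrc5 was at 0.01 or 0.02 FPKM. From the depths and annotated exon lengths, the lowest library held about 8848 reads of H2-K1, 242 of Tap1, 136 of Psmb8 and 120 of Psmb9. These read numbers are approximate, since the gene model used by the authors is not stated in the sources used here, and their counting error was 1.06%, 6.43%, 8.57% and 9.14%.

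**Figure D2:**
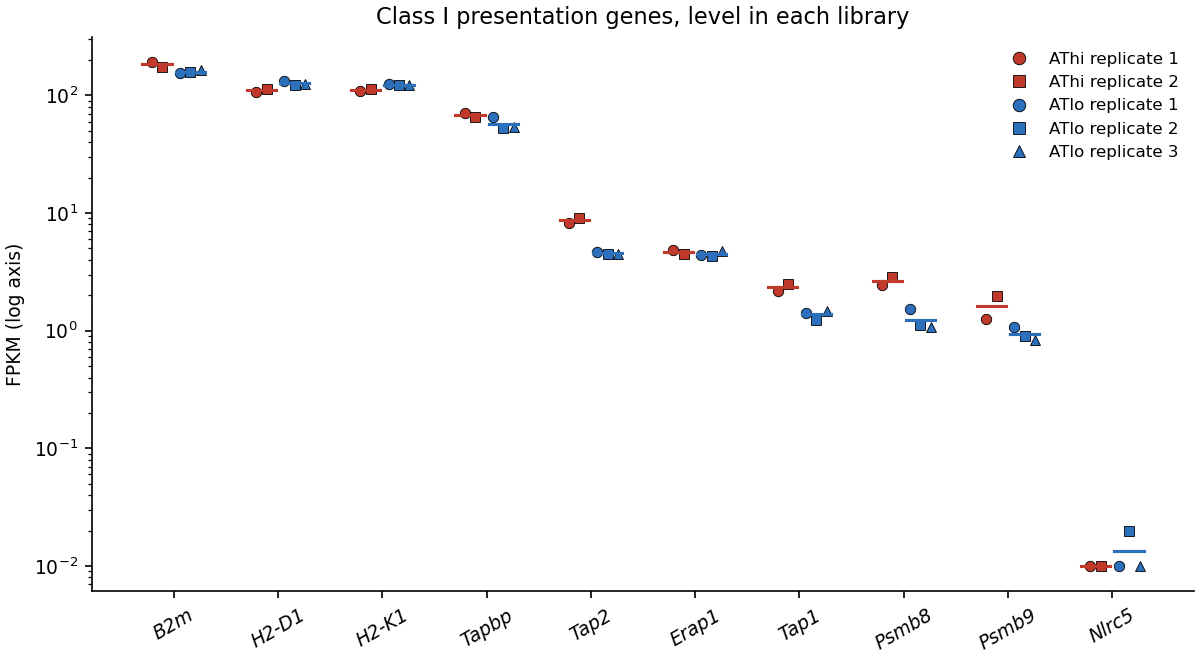
FPKM of each member in each library on a log axis, with AThi in red, ATlo in blue, one symbol per library and a line at the group mean. AThi and ATlo points separate upward for Tap2, Tap1, Psmb8 and Psmb9, while the H2-D1 and H2-K1 points of AThi sit slightly under those of ATlo.

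The classical heavy chains bind the peptide and face the T cell receptor. H2-K1 (chromosome 17, 33996017 to 34000347, minus strand, GRCm38) was at 109 and 114 FPKM in AThi and 124, 122 and 123 FPKM in ATlo. H2-D1 (chromosome 17, 35262730 to 35267499, plus strand) was at 106 and 114 FPKM in AThi and 132, 122 and 125 FPKM in ATlo. In both genes each AThi library lay under each ATlo library, as the libraries of the groups did not overlap in 70.3% of all tested genes. The log2 fold change of H2-K1 was -0.14 ± 0.06 (SE, limma adjusted p = 0.102), with a 95% confidence interval from -0.28 to 0.01, and that of H2-D1 was -0.20 ± 0.07 (SE, limma adjusted p = 0.0501), from -0.36 to -0.03. Neither passed. H2-D1 lay at the threshold, and it passed in 3 of 14 alternative fits, with adjusted p-values from 0.0481 to 0.05 there and up to 0.209 in the others. H2-K1 passed in 0 of 14.

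Heavy chain genes are near-identical in stretches, so reads can be lost or credited to a neighbour. Of all windows of 50 bases in its annotated transcripts, H2-K1 shared 9.63% with another gene, most with H2-Q10 (5.18%) and H2-D1 (4.08%), and H2-D1 shared 12.8%, most with H2-Q1 (5.87%) and H2-K1 (5.44%). With windows of 100 bases these shares were 0.957% and 3.59%. The sources used here do not give the read length or how reads with several matches were counted, so the levels of both genes are uncertain to an extent these shares do not settle. The sum of both genes was 216 and 229 FPKM in AThi and 256, 244 and 248 FPKM in ATlo. Reads exchanged between the genes cancel in it in part, since their annotated exon lengths differ (2938 and 2579 bases). Reads lost or exchanged with other genes do not cancel. Its log2 difference was -0.17, with a two-sided exact permutation p of 0.2, the smallest this design allows with 2 libraries against 3. With all heavy chains of the wider list added, among them Mr1 and Fcgrt, which shared no window of 50 bases with another gene, the difference was -0.03.

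B2m, which encodes the invariant light chain with which class I heavy chains pair, lies on chromosome 2 (122147686 to 122153083, plus strand). It was at 193 and 174 FPKM in AThi and 155, 158 and 163 FPKM in ATlo. All AThi values lay above all ATlo values, while the groups did not overlap in 70.3% of all tested genes. The log2 fold change was 0.20 ± 0.07 (SE, limma adjusted p = 0.0530), with a 95% confidence interval from 0.03 to 0.38. The gene did not pass and stood at the threshold, passing in 5 of 14 alternative fits, among them both rescalings of the libraries (adjusted p 0.0285 and 0.0279) and the fit with the replicate number as a block (0.0489). The block fit gave the same fold change as the fit without ATlo replicate 3 (0.22), where the adjusted p in limma was 0.0834. B2m shared no window of 50 bases with another gene. B2m per unit of summed H2-K1 and H2-D1 was 0.893 and 0.762 in AThi and 0.608, 0.649 and 0.658 in ATlo, and the groups did not overlap. The log2 ratio was higher by 0.37 in AThi, with an exact permutation p of 0.2. Without AThi replicate 1, the library with the larger ratio, the difference was 0.26, and without AThi replicate 2 it was 0.48.

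TAP1 and TAP2 form the transporter as a heterodimer, and both genes rose. Tap2 (chromosome 17, 34203527 to 34216321, plus strand) was at 8.2 and 9.12 FPKM in AThi and 4.64, 4.49 and 4.52 FPKM in ATlo. Its log2 fold change was 0.86 ± 0.07 (SE, limma adjusted p = 0.000212), the smallest adjusted p among the members, and it passed in 14 of 14 alternative fits. Tap1 (chromosome 17, 34187553 to 34197225, plus strand) was at 2.19 and 2.49 FPKM in AThi and 1.42, 1.23 and 1.48 FPKM in ATlo, with a log2 fold change of 0.60 ± 0.12 (SE, limma adjusted p = 0.00573), and it passed in 13 of 13. Tap2 also overlaps Gm15821 on the opposite strand (9.22% of its windows of 50 bases), which was at 0 in all 5 libraries. Tap2 per Tap1 was 3.74 and 3.66 in AThi and 3.27, 3.65 and 3.05 in ATlo. The log2 ratio differed by 0.16, with pooled SD 0.11 over libraries and an exact permutation p of 0.2. Tap1 overlaps Psmb9 on the opposite strand (2.88% of its windows of 50 bases), and without a stated strand setting reads from that overlap cannot be told apart.

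Tapasin holds the empty heavy chain at the transporter and edits its peptide. Tapbp (chromosome 17, 33915899 to 33929292, plus strand) was at 71.0 and 65.6 FPKM in AThi and 66.0, 53.0 and 54.0 FPKM in ATlo. The groups overlapped through ATlo replicate 1, and the log2 fold change of 0.25 ± 0.11 (SE, limma adjusted p = 0.0887) did not pass. Without ATlo replicate 1 it was 0.35, with an adjusted p of 0.00948. Tapbp also overlaps an opposite-strand gene, Gm19412 (20.3% of its windows of 50 bases), which was at 1.80 and 1.08 FPKM in AThi and 1.80 to 2.77 FPKM in ATlo. Erap1 (chromosome 13, 74639568 to 74693201, plus strand), the aminopeptidase that trims peptides to class I length, was at 4.84 and 4.53 FPKM in AThi and 4.43, 4.35 and 4.80 FPKM in ATlo. Its log2 fold change was 0.05 ± 0.08 (SE, limma adjusted p = 0.661), with a 95% confidence interval from -0.14 to 0.23. Erap1 overlaps Cast on the opposite strand (10.7% of windows), which was at 10.9 to 12.1 FPKM in these libraries.

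**Figure D3:**
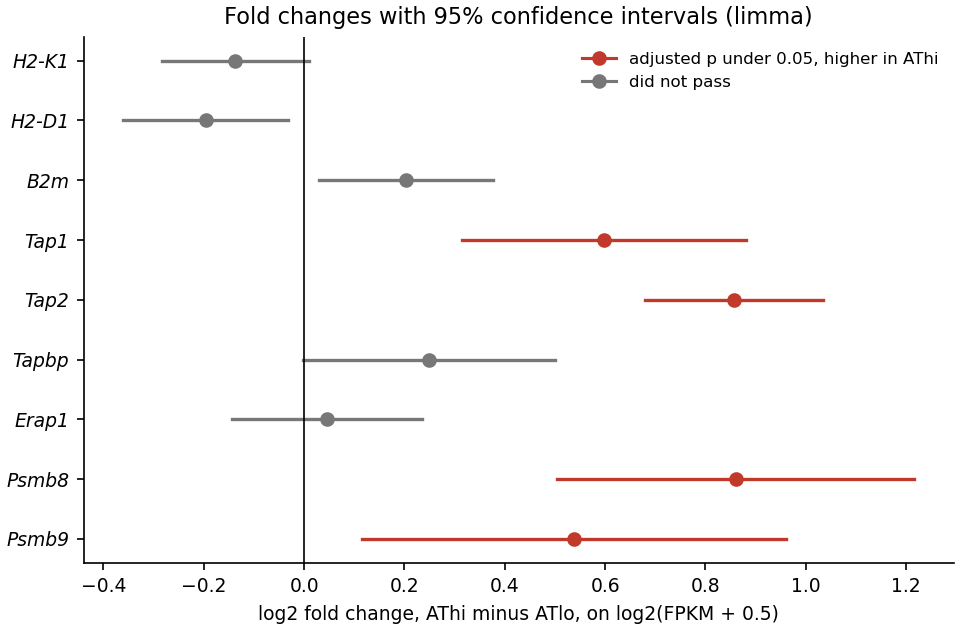
Log2 fold change, AThi minus ATlo on log2(FPKM + 0.5), of the 9 tested members (points) with 95% confidence intervals from limma (bars); red marks an adjusted p under 0.05. Tap1, Tap2, Psmb8 and Psmb9 lie to the right of 0, H2-K1 and H2-D1 lie at -0.14 and -0.20, and Erap1 is centred near 0.

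PSMB8 and PSMB9 replace the standard catalytic subunits PSMB5 and PSMB6 in the immunoproteasome and shift its cuts towards class I ligands. Psmb8 (chromosome 17, 34197721 to 34201454, plus strand) was at 2.44 and 2.85 FPKM in AThi and 1.53, 1.12 and 1.07 FPKM in ATlo. Its log2 fold change was 0.86 ± 0.15 (SE, limma adjusted p = 0.00327), and it passed in 13 of 13 alternative fits. Psmb9 (chromosome 17, 34181987 to 34187764, minus strand) was at 1.27 and 1.97 FPKM in AThi and 1.08, 0.91 and 0.84 FPKM in ATlo, with a log2 fold change of 0.54 ± 0.18 (SE, limma adjusted p = 0.0403). The groups did not overlap in either gene, as in 70.3% of all tested genes, and the AThi libraries of Psmb9 were far apart. Without AThi replicate 2, Psmb9 had a log2 fold change of 0.30 (adjusted p 0.256). It also missed the threshold without ATlo replicate 2 (0.52, adjusted p 0.0909) and without ATlo replicate 3 (0.49, adjusted p 0.0914). With no filter on low values its adjusted p was 0.115, and with the replicate number as a block it was 0.0538. Psmb8 overlaps Gm20496 on the opposite strand (11.6% of its windows of 50 bases), which was at 0 in all 5 libraries.

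The standard subunits moved the other way. Psmb5 changed from 25.2 ± 0.97 FPKM in ATlo (SD, n = 3) to 16.1 ± 0.21 FPKM in AThi (SD, n = 2), or by -0.63 ± 0.06 on the log2 scale (SE, limma adjusted p = 0.000329). Psmb6 fell from 58.0 ± 3.95 to 37.3 ± 0.72 FPKM (SD, same n), with an adjusted p in limma of 0.000662, and Psmb7 from 29.9 ± 1.53 to 16 ± 0.61 FPKM (SD, same n), with an adjusted p in limma of 0.000136. The third inducible subunit gene, Psmb10, was at 19.8 and 20.8 FPKM in AThi and 22, 20.2 and 20.4 FPKM in ATlo, with a log2 fold change of -0.04 ± 0.07 (SE, limma adjusted p = 0.659). Psmb8 per Psmb5 was thereby 0.150 and 0.178 in AThi and 0.058, 0.045 and 0.043 in ATlo. Psmb9 per Psmb6 was 0.034 and 0.054 against 0.018, 0.016 and 0.016, and Psmb10 per Psmb7 was 1.21 and 1.34 against 0.767, 0.639 and 0.694. The groups did not overlap in any of the 3 ratios, as they did not in 70.3% of single tested genes. The differences on the log2 scale were 1.75, 1.39 and 0.86, and each had an exact permutation p of 0.2, the smallest possible, over a family of 6 sums and ratios, so none could pass. In the last ratio Psmb7 fell, while Psmb10 itself did not pass. In AThi, Psmb8 and Psmb9 were still at most 0.178 and 0.054 of the standard subunit. Psmb5 shares 54.1% of its windows of 50 bases with another gene, most with its copy Gm3375 (46.8%), so its level is uncertain. Psmb7 shares 9.3% of such windows with Nek6 on the opposite strand.

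**Figure D4:**
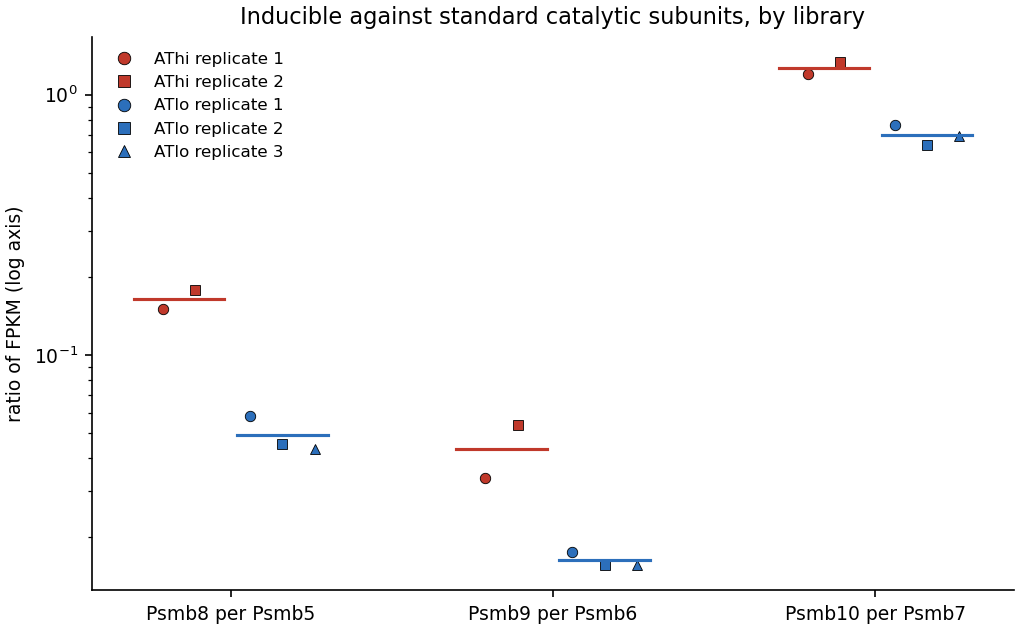
Ratio of FPKM of an inducible to the standard proteasome subunit it replaces, by library, on a log axis (AThi red, ATlo blue, line at the group mean). The AThi libraries lie above the ATlo libraries for Psmb8 per Psmb5 (0.150 and 0.178 against 0.043 to 0.058), Psmb9 per Psmb6 and Psmb10 per Psmb7.

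Nlrc5, the class I transactivator (chromosome 8, 94434356 to 94527272, plus strand), was at 0.01 FPKM in both AThi libraries and at 0.01, 0.02 and 0.01 FPKM in ATlo. These values correspond to about 2.3 to 6.1 reads per library, close to the 3 reads taken as the floor for detection. At 0.01 or 0.02 FPKM, the rounding to 2 decimals makes these read numbers rough. No difference between the groups was detectable at this depth. Ciita, its class II counterpart, was listed at 0 in all 5 libraries. Of 17 other tested genes of the class I promoter and interferon gamma route, out of 18 listed, 5 rose and 3 fell, so 8 of 17 were called against 51.6% of all tested genes, and the median log2 fold change was 0.11 against -0.03 over all tested genes. Irf1, an interferon regulatory factor that binds class I promoters, was at 28.4 and 39.8 FPKM in AThi and 17.4, 17.7 and 14.6 FPKM in ATlo, with a log2 fold change of 1.0 ± 0.15 (SE, limma adjusted p = 0.00171). It was highest in AThi replicate 2, the library that was also highest in Tap1, Tap2, Psmb8 and Psmb9 and in the immediate-early sum. Rfx5, a subunit of the X-box binding complex, rose by 0.40 ± 0.07 (SE), while its partners Rfxap and Rfxank did not pass, at 0.05 and 0.11.

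The interferon gamma receptor genes Ifngr1 and Ifngr2 rose by 0.33 and 0.30, and Socs1, a feedback inhibitor of JAK kinases, by 0.39. The falls were in Nfyb and Nfyc, subunits of the CCAAT-binding factor, and in Nfkb1, with log2 fold changes of -0.45, -0.30 and -0.35. When single libraries were dropped, 3 of those 5 rises were called every time, as were 2 of those 3 falls. Ifngr2 and Socs1 lost theirs in 4 of 5 such fits each, with values down to 0.26 and 0.30, and Nfyc in 4 of 5, with values from -0.32 to -0.23.

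Other class I and class I-like heavy chains were measured at lower levels. Of 26 listed, 22 had a row, 9 were tested, and 10 were under 0.1 FPKM in every library. Of the 9, 5 rose, against 22.2% of all tested genes, 0 fell and 4 were not called, and the median log2 fold change was 0.44. The largest rises were in Mr1, which presents microbial metabolites to MAIT cells, from 2.03 ± 0.21 FPKM in ATlo (SD, n = 3) to 4.59 ± 0.01 FPKM in AThi (SD, n = 2), and in Fcgrt, the heavy chain of the neonatal Fc receptor, from 7.32 ± 0.88 to 13.8 ± 0.28 FPKM (SD, same n). Their log2 fold changes were 1.01 ± 0.10 and 0.88 ± 0.10 (SE), and neither gene shared a window of 50 bases with another. H2-T23, the gene of Qa-1, a ligand of NKG2A receptors on natural killer cells, was at 21.9 and 23.1 FPKM in AThi and 16.6, 13.6 and 13.8 FPKM in ATlo, a rise of 0.60 ± 0.10 (SE, limma adjusted p = 0.00219).

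H2-Q4 and H2-M3 rose by 0.44 each, and without AThi replicate 2 they were at 0.32 and 0.28 with adjusted p-values of 0.120 and 0.0568. H2-Q10, H2-T22, H2-T10 and Hfe did not pass, with values of -0.54, -0.07, 0.05 and -0.15. H2-Q4, H2-Q10, H2-T10 and H2-T22 shared 36.4%, 19.1%, 50.4% and 53.5% of windows of 50 bases with another gene, and H2-T23 shared 14.5%. All of these shares were above those of H2-K1 and H2-D1, so the levels of these genes, H2-T23 included, are uncertain. H2-M3 and Hfe shared 0.576% and 3.23%. H2-Q10, most of whose product is known from liver, had 0.96 and 0.98 FPKM in AThi and 2.35, 1.5 and 1.21 FPKM in ATlo. Its AThi mean of 0.97 FPKM was under the filter, so it entered the test through its ATlo values. Without ATlo replicate 3 its value was -0.70, with an adjusted p in limma of 0.0286. With the replicate number as a block the value was the same, since that library is alone in its block, and the adjusted p in limma was 0.00752.

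Loading of the heavy chain also needs general chaperones of the endoplasmic reticulum. Of 9 such genes, 3 fell, against 29.4% of all tested genes, 0 rose and 6 were not called, and the median was -0.17. The falls were in Bcap31, an export receptor of class I molecules, Pdia6 and the lectin chaperone gene Calr, at -0.31, -0.28 and -0.26. Of these, Bcap31 kept its call whichever library was dropped. Pdia6 lost it without AThi replicate 2 and without ATlo replicate 2 (adjusted p 0.0546 and 0.0549), and Calr without the same libraries (0.0745 and 0.0907). Pdia3 and Canx, the oxidoreductase and the membrane lectin of the loading complex, were at -0.13 and -0.17, and Tapbpl, the second peptide editor, was at -0.09. None of these 3 passed.

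Cytosolic peptidases trim or destroy proteasome products before transport. Of the 8 peptidase genes measured, the endosomal Lnpep among them, 6 fell and 2 rose, against 29.4% and 22.2% of all tested genes. The median was -0.25. Thop1, which destroys many class I precursors, changed from 18.8 ± 1.27 FPKM in ATlo (SD, n = 3) to 10.7 ± 0.40 FPKM in AThi (SD, n = 2), or by -0.79 ± 0.08 (SE). Blmh, Ide and Nrd1 changed by -0.67, -0.53 and -0.27. Lnpep, an aminopeptidase of endosomes with a role in cross-presentation, and Npepps rose by 0.62 and 0.35. Whichever library was dropped, both rises stayed called and so did 3 of the falls, while Nrd1, Tpp2 and Lap3 lost theirs at least once. Nrd1 lost its call without AThi replicate 2 (-0.19, adjusted p 0.0988) and without ATlo replicate 2 (adjusted p 0.0512). Of the 9 further proteasome genes tested beside Psmb8 and Psmb9, 7 fell, against 29.4% of all tested genes, and 0 rose, with a median of -0.43, and 2 were not called. Beyond the standard subunits, the assembly factor gene Pomp changed by -0.56, and the activator gene Psme2 by -0.43, while its partner Psme1 was at 0.16 and was not called. Psme4, another activator gene, was at -0.33, and without AThi replicate 2 at -0.19 with an adjusted p of 0.0996. Without ATlo replicate 1 Psme1 was at 0.23, with an adjusted p of 0.0376.

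Genes described in the turnover of class I molecules were mostly higher in AThi. Of 7 tested, out of 11 symbols listed, 5 rose, against 22.2% of all tested genes, and the median was 0.39. That count includes the general autophagy genes Sqstm1 and Map1lc3b, and the cells were sorted by autophagic flux. The count is therefore no result about class I turnover by itself. Nbr1, the receptor named above, was at 57.5 and 51.2 FPKM in AThi and 44.5, 40.1 and 39.2 FPKM in ATlo, a rise of 0.39 ± 0.08 (SE, limma adjusted p = 0.00748). Without AThi replicate 1 it was 0.31, with an adjusted p of 0.0508. Susd6, which recruits a ubiquitin ligase to class I molecules, rose by 0.74 ± 0.08 (SE) and its partner Tmem127 by 0.25 ± 0.06 (SE), a call lost without AThi replicate 1 (0.21, adjusted p 0.0717) and without ATlo replicate 2 (0.24, adjusted p 0.0564). The ligase gene of that complex, Wwp2, was at -0.06 and did not pass. Sqstm1 and Map1lc3b, general autophagy genes, rose by 0.61 and 0.39. The reporter carries LC3, and whether reads of the transgene were counted as Map1lc3b was not tested.

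**Figure D5:**
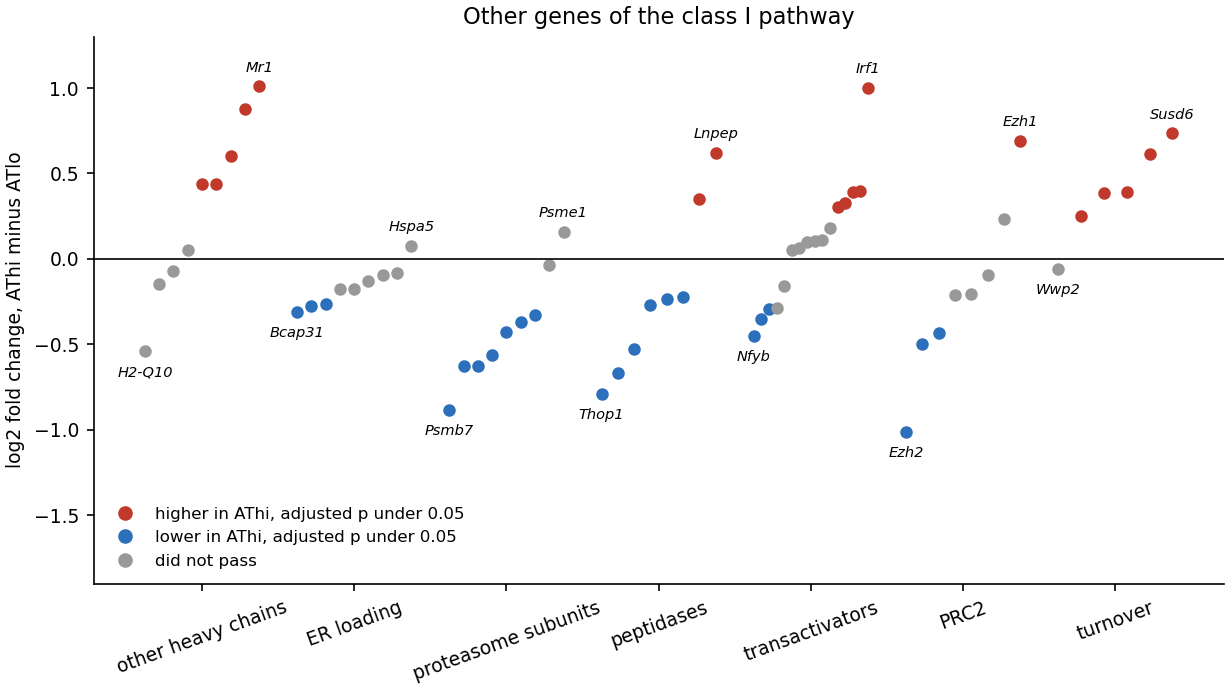
Log2 fold change, AThi minus ATlo, of tested genes of 7 lists around the class I pathway (1 point per gene, ordered by value within a list; red higher, blue lower, grey did not pass). The extreme genes are named: Mr1 and Irf1 lie at 1.01 and 1.0, the peptidases and proteasome subunits lie mostly under 0, and Ezh2 is the lowest of the genes plotted at -1.01. A gene each of the transactivator and turnover lists is not plotted.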

How the data were processed

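The deposited table gives FPKM per gene and library, made by the authors and rounded to 2 decimals, with STAR, featureCounts, bcl2fastq and DESeq2 and builds mm10 and GRCm38 listed in the submitters' processing notes. The sources used here give no versions, annotation, strand setting or FPKM formula. The values are relative within a library, and fewer cells of a type cannot be told apart from less RNA per cell.

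From these values, log2(FPKM + 0.5) of genes averaging 1 FPKM or more was fitted with limma 3.58.1 in R 4.3.3 (eBayes with trend, group as the single term, two-sided, Benjamini-Hochberg over 11397 genes). The scale understates changes of low genes. The fit was tested on simulated data. Sums and ratios were compared with exact permutation tests in SciPy 1.17.1. Depth came from single-exon genes of up to 200 bases, for which the product of FPKM and length gave whole steps (tolerance 0.1, 100% of values below 20 steps). The floor and the counting errors of reads cover counting alone, while confidence intervals come from limma and rest on the spread between libraries. Coordinates and transcripts are GENCODE M21 (GRCm38), 1-based. In 26 rows a date-like number stood for the symbol. A pair of ubiquitin ligase genes of the turnover list, each under an older and a newer symbol, was not matched.

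Members and lists were chosen with earlier results of these data known, and the motifs after the sequences were seen. Named are the members, up to 4 list genes per direction by size, the marker genes, a few regulators and the 3 genes nearest in profile to H2-K1 and B2m. Ifngr2, H2-M3, Tmem127, Psme1, H2-Q10, Hfe, H2-T22, H2-T10 and other list genes that did not pass were named after their values were seen. A gene each of the regulator and turnover lists is counted in the totals but not reported here.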

Additional observations from a re-analysis of the deposited data

How the results depend on the processing

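AThi and ATlo libraries of the same replicate number also share the start of a date-like code in their titles. The labels do not say what it marks, and only 2 pairs exist, so a shared preparation is possible but not stated. Deviations of same-numbered libraries from their group means correlated at 0.20 and 0.30 across genes. With 2 AThi libraries their deviations mirror each other, so these values are not independent. ATlo replicate 3, which has no AThi partner, was at 0.06 and -0.06 with AThi replicates 1 and 2. With the replicate block 5909 genes passed against 5884. ATlo replicate 3 stands alone in its block, so it adds nothing to the fold changes, which rest on the 2 pairs. They equal those of the fit without ATlo replicate 3, so these 2 fits are not separate checks. The block fit left 1 residual degree of freedom. Under the block Psmb9 was at 0.49 (limma adjusted p 0.0538) and no longer passed, and B2m was at 0.22 (limma adjusted p 0.0489) and passed. H2-Q10, whose AThi mean of 0.97 FPKM was under the filter, was at -0.70 (limma adjusted p 0.00752) and passed.

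Leaving out each library in turn gave 4309 to 5718 genes past the threshold (1715 to 2467 higher, 2594 to 3251 lower), 3 to 5 members higher and 0 lower. The log2 fold change then ranged from -0.17 to -0.10 for H2-K1, -0.25 to -0.15 for H2-D1, 0.13 to 0.27 for B2m, 0.52 to 0.67 for Tap1, 0.78 to 0.93 for Tap2, 0.19 to 0.35 for Tapbp, 0.77 to 0.98 for Psmb8 and 0.30 to 0.78 for Psmb9. Where 1 AThi library remained, it was assumed to vary like the others. B2m passed without AThi replicate 2 and Tapbp without ATlo replicate 1. The log2 ratio differences ranged from 1.05 to 1.72 for Psmb9 to Psmb6 and from 0.26 to 0.48 for B2m to the heavy chain sum.

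With a minimum mean of 5 FPKM, 1683 genes were higher. Only 1 member was then higher, since fewer members are tested. The 1 member lower was H2-D1, whose adjusted p in limma moved from 0.0501 to 0.0481. H2-D1 passed at -0.20 with that filter, with pseudocount 0.1 and with robust moderation, each of which gave 1 member lower. B2m passed rescaled to TPM (0.24), with median-of-ratios size factors (0.24) and with robust moderation (0.20), and Tapbp rescaled to TPM (0.29). Psmb9 was at 0.54 and did not pass with no filter on low values. The Psmb8 to Psmb5 difference was 1.49 with a pseudocount of 0.5, and the heavy chain sum was at -0.032 with all listed heavy chains. The cause of these shifts was not tested. Reversals of sign occurred in genes that did not pass: without AThi replicate 2 for H2-T22 and Krt18, without AThi replicate 1 for Jak1, Wwp2 and Epcam, and without ATlo replicate 3 and with the replicate block (0.0266) for Mtf2. Over the libraries left out they ranged from -0.166 to 0.0235 (H2-T22), -0.0514 to 0.243 (Krt18), -0.0286 to 0.152 (Jak1), -0.136 to 0.0152 (Wwp2), -0.649 to 0.25 (Epcam) and -0.214 to 0.0266 (Mtf2). No tested member changed sign in any alternative.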

Other observations

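Polycomb repressive complex 2, described as a silencer of class I genes in tumour cells, was measured through 8 genes, of which 3 fell, 1 rose and 4 did not pass, so 4 of 8 were called against 51.6% of all tested genes. The methyltransferase gene Ezh2 was at 6.87 and 6.10 FPKM in AThi and 12.2, 13.6 and 15.1 FPKM in ATlo, a log2 fold change of -1.01 ± 0.10 (SE, limma adjusted p = 0.000347). Its paralogue Ezh1 moved the other way, from 10.1 ± 0.46 FPKM in ATlo (SD, n = 3) to 16.6 ± 1.05 FPKM in AThi (SD, n = 2), a rise of 0.69 ± 0.07 (SE). Rbbp7 and Suz12 changed by -0.50 and -0.43, and without AThi replicate 2 Suz12 was at -0.34 with an adjusted p of 0.0899. Eed, the third core subunit, did not pass, at -0.21. Ezh2 is also known as a gene of dividing cells.

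Among class II genes, H2-DMb1 passed the filter although H2-Aa, H2-Ab1 and H2-Eb1 were near 0. It was at 5.15 and 6.58 FPKM in AThi and 3.90, 4.16 and 4.26 FPKM in ATlo, with a log2 fold change of 0.46 ± 0.11 (SE, limma adjusted p = 0.0119), and without AThi replicate 2 it was at 0.30 with an adjusted p of 0.0677. Its partner H2-DMa was at 0.35 to 0.50 FPKM in all 5 libraries.

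The genes whose profile over the 5 libraries was most like that of H2-K1 were Rapgef1, Pxn and Zmiz2, with root mean square differences of 0.008, 0.009 and 0.015 in centred log2 values, against a median of 0.18 over all tested genes. For B2m they were Msl1, Rab3gap1 and Ppp2r3a, at 0.014, 0.016 and 0.016 against a median of 0.20. Among the members, the closest pair was H2-K1 with H2-D1, at 0.041.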
